A study of Homo sapiens with 9 samples.

Results

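Transcripts of the translation initiation factor genes were followed in HEK293T cells, a human embryonic kidney line, through a heat shock and the recovery from it. The members were the protein-coding genes whose current symbol begins with EIF and a digit from 1 to 6, with pseudogenes and chromosome Y left out. The kinases of eIF2α (EIF2AK) and the eIF4E-binding repressors (EIF4EBP), which control initiation without being initiation factors, were kept. This gave 55 of the 60664 genes counted, of which 53 passed the filter on low counts. EIF4E1B, with 0 to 4 counts in a library, and EIF4EBP3, with 2 to 10, did not pass it and were not tested.

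The series held 9 RNA-seq libraries of total RNA depleted of ribosomal RNA. Untreated wild-type cells grown at 37°C are called NC, cells taken straight after 1 h at 43°C in a water bath H1, and cells returned to 37°C for 1, 6 or 18 h after that heat shock H1R1, H1R6 and H1R18. H1R18 had 1 library and every other condition 2, and no label says whether replicates came from separate cultures, so the p-values measure the spread between libraries, which may be technical. Libraries held 3814195 (NC replicate 2) to 6221613 (H1R1 replicate 1) counts. Of 8 markers of HEK293 cells 7 were above 1 CPM (counts scaled to a common library total) in every library, with a summed level of 506 to 614 CPM, whereas 6 hepatocyte markers summed to 0 to 1.41 CPM and 4 blood markers to 0 to 1.34 CPM. INA, at 0.353 to 2.005 CPM, was the exception among the HEK293 markers. VIM alone held 201 to 291 CPM of their sum, and PAX2 was at 6.26 to 14.6 CPM. Of 4 genes listed for HeLa cells CAV1 and S100A4 were above 1 CPM in every library, and the 4 summed to 9.18 to 14.1 CPM.

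In cap-dependent initiation, eIF4F, made of the cap-binding eIF4E, the helicase eIF4A and the scaffold eIF4G, brings a messenger RNA to a small ribosomal subunit that carries eIF1, eIF1A, eIF3, eIF5 and a ternary complex of eIF2, GTP and the initiator tRNA. The subunit scans to a start codon, eIF5 promotes GTP hydrolysis by eIF2, and eIF5B joins the large subunit, after which eIF2B reloads eIF2 with GTP. Under heat and other stresses initiation is known to be held back chiefly by eIF2α kinases, which turn eIF2 into an inhibitor of eIF2B, and by hypophosphorylated 4E-binding proteins, which keep eIF4G from eIF4E. Both act on proteins, and the libraries measured transcripts only.

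RefSeq promoters (GRCh38.p14, 250 bases before to 50 after a gene's start) were found for 46 of the 55 members, 62 promoters in all. They are shown as 30-base stretches around matches to binding motifs, because some members the results turn on (EIF5, EIF4G2, EIF4E, EIF4G1) held them. No match was found for EIF1AD or EIF4EBP1, whose changes are also described below. A heat shock element of 3 units (alternating GAA and TTC units with a gap of 2 bases, both strands), the motif bound by heat shock factors, was in 0 of the 62 promoters, against 0.49% of all 35116 promoters. A pair of units (GAANNTTC or TTCNNGAA, both strands, contained in the longer motif) was in 5 of the 62 (8.06%), against 13.5% of all promoters. The 6 matches are in capitals, written 5′ to 3′ on the strand of the gene:
EIF5: agtcagagcgaGAACATTCcagaggtgagt
EIF4G2: gcctcagagacTTCGCGAAtatggctttgc
EIF4A2: aagcacggcgaGAAAATTCctccgcaagaa
EIF5B: ccacctccgggTTCTAGAAcgtggaaaacc
EIF3F, distal: gagcgcacaaaTTCCAGAAgaaattaccaa
EIF3F, proximal: agctcctgataTTCATGAAtgctgtcattt
The EIF5 match lay at bases 12 to 19 of the RefSeq transcript (chr14:103334237-103334266 for the stretch shown, plus strand), in an annotated exon outside the coding part, and the EIF4G2 match at −201 to −194 (chr11:10809109-10809138 for the stretch shown, minus strand). The other 3 genes held theirs upstream of the RefSeq start, EIF4A2 from −69 to −62, EIF5B from −186 to −179 and EIF3F from −151 to −144 and from −32 to −25. The matches of EIF4G2, EIF4A2 and EIF3F lay in an annotated exon of the same gene outside the coding part, and that of EIF5B in no exon. The EIF3F start used, base 7987337, lies inside a gene that was counted from base 7970251.

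The E-box CACGTG, which is its own reverse complement and is bound by MYC, MAX and related factors, was in 12 of the 62 member promoters (19.4%), of 12 members, against 7.26% of all promoters. EIF1B, EIF2AK2, EIF2B3, EIF3K and EIF4H held an E-box and were not called at H1R1, and EIF4EBP3 held one and was not tested. The matches are shown for the tested members with an E-box that were called at H1R1, in capitals and on the strand of the gene:
EIF4E, distal: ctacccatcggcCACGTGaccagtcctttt
EIF4E, proximal: ggacatatccgtCACGTGgccagaagctgg
EIF4G1, distal: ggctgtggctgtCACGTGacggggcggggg
EIF4G1, proximal: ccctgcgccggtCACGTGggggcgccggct
EIF5A2, distal: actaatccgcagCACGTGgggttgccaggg
EIF5A2, proximal: cagggcgctcttCACGTGactgggcggagc
EIF4A3: ccagttccctttCACGTGacgaagagtgcc
EIF3F: aaagctctagctCACGTGgtgtatattcag
EIF4B: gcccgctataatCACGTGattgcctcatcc
EIF4E held a pair of them at −225 to −220 (chr4:98929341-98929370 for the stretch shown, minus strand) and −72 to −67 (chr4:98929188-98929217 for the stretch shown, minus strand), both inside an exon that GENCODE 29 gives to another EIF4E transcript. The E-boxes of EIF3F and EIF4B and the proximal match of EIF4G1 also lay in an annotated exon of their gene, outside the coding part. Of 33 tested members with a promoter and no E-box, 10 were called higher at H1R1 than in NC. Of 11 tested members with an E-box 5 were called higher at H1R1 than in NC and 1, EIF4B, lower, against 10.7% and 9.53% of all genes tested, and 22.9% and 12.6% of protein-coding genes whose log2 CPM averaged 5 or more. Each of these 6 calls was lost without H1R1 replicate 1. The C/EBP-ATF response element TGATGNAA (both strands), known from stress-induced genes, was in 1 of the 62 promoters (1.61%), that of EIF4E3, against 3.62% of all promoters. A match is a run of letters and not a measured binding site.

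Per length of exon, the members spanned more than 2 orders of magnitude in NC cells. As TPM computed here from counts and annotated exon length, EIF5A stood at 363, EIF4EBP1 at 348, EIF1 at 256, EIF2S3 at 250.2, EIF3D at 183, EIF4G2 at 182 and EIF3A at 174 TPM. EIF2B2, the β subunit of eIF2B, was at 9.30, EIF2AK3 at 3.26 and EIF5A2 at 3.17 TPM. All subunits of eIF2B lay below EIF2S2 and EIF2S3 in every condition: EIF2B1, the highest, was at 35.2 TPM in NC and EIF2S2 at 111. EIF2S1, at 29.8 TPM in NC, lay below EIF2B1 in every condition. The values of EIF3E (21.2 TPM) and EIF2AK3 rest on annotated exon lengths of 37761 and 20691 bases, the longest of the 55 members, so their levels per length may be too low. Together the members held 0.981% and 0.982% of all counts in NC, 1.00% and 1.00% in H1, 1.08% and 1.04% in H1R1, 0.987% and 1.01% in H1R6 and 0.89% in H1R18. These are shares of a library, which also move when other transcripts change and do not give the amount of RNA per cell.

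**Figure D1:**
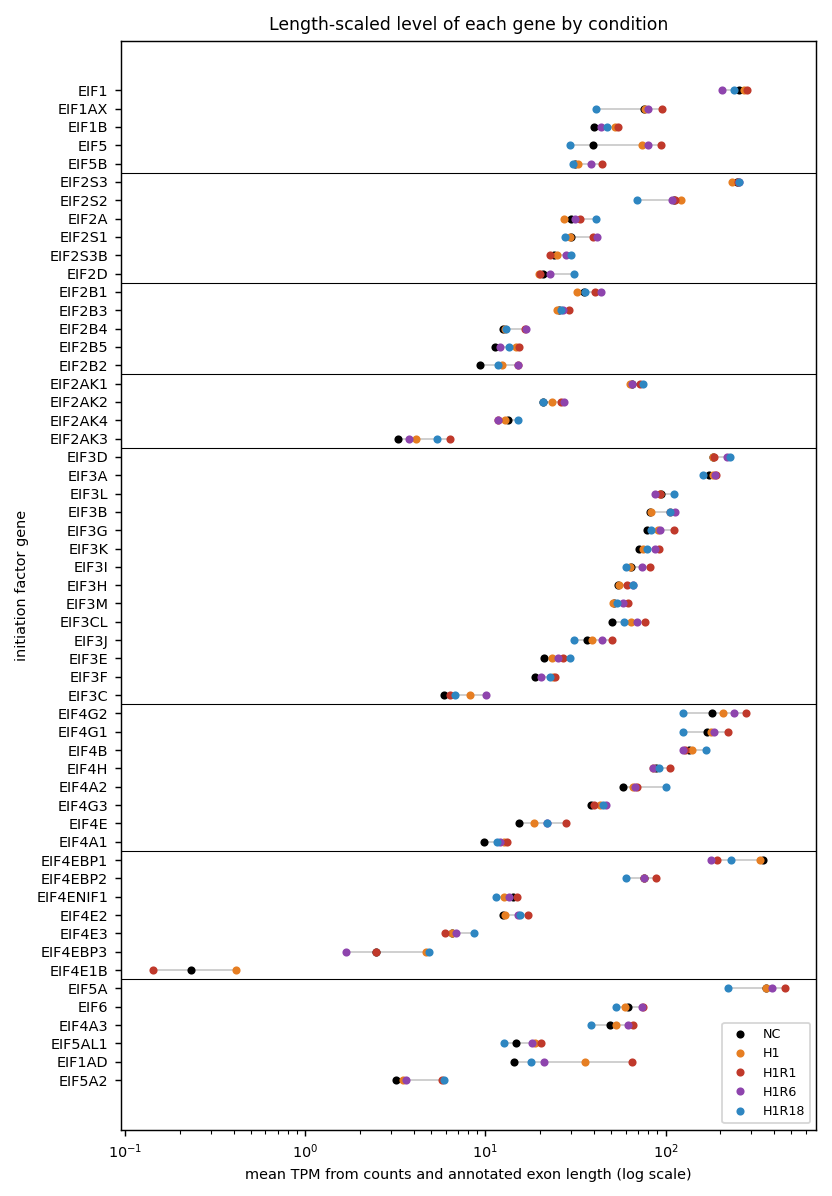
Length-scaled level of each of the 55 genes as mean TPM (horizontal axis, log scale) in NC, H1, H1R1, H1R6 and H1R18 (coloured points, means over 2 libraries, 1 at H1R18), grouped by complex and ordered within it by the NC level. Conditions at 0 are not drawn (EIF4E1B at H1R6 and H1R18). EIF5 and EIF1AD show the widest spread between conditions in their groups.

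Counts were made without strand, and reads that fit several places or several genes were not counted, so a member that shares sequence with another gene is measured only on the rest of its length. Of the 75-base windows of EIF3CL transcripts 96.0% also occur in EIF3C, and 41.3% of those of EIF3C occur in EIF3CL, so these near-identical genes are uncertain. EIF4A1 shared 47.4% of its exon bases with overlapping genes, and 13 pseudogenes named after it held 2929 counts over all libraries, against 1356 for EIF4A1. The level of EIF4A1 is therefore uncertain. EIF3L shared 51.8% of its exon bases and EIF4EBP3 73.2%. EIF2S2 shared 18.5% of windows with genes elsewhere, chiefly the pseudogene EIF2S2P4, and EIF5A 8.28%, chiefly EIF5AL1. EIF5, EIF1AD and EIF4EBP1 each shared under 5% of windows.

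**Figure D2:**
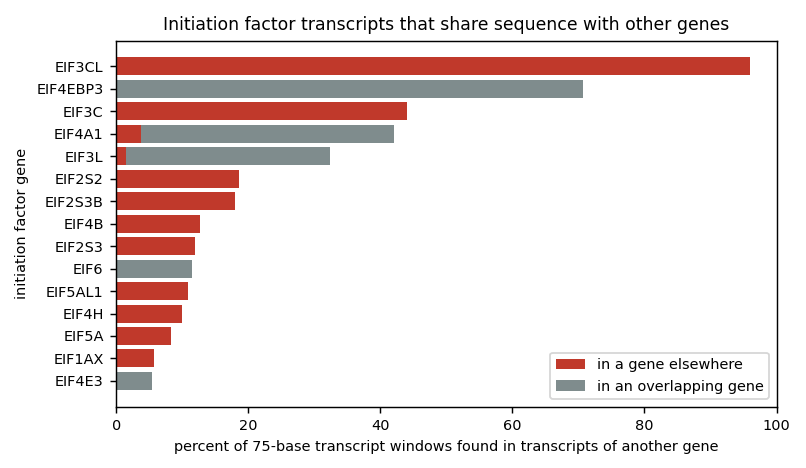
Percent of 75-base windows of a member's transcripts that also occur in transcripts of another gene (horizontal axis), for the members with at least 5%, split into genes elsewhere (red) and overlapping genes (grey). EIF3CL stands at 96.0% and EIF4EBP3 at 70.7%.

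Over the whole family, calls were most numerous at H1R1 and H1R18. A gene was called when its Benjamini-Hochberg adjusted p over all 21139 genes tested, by the quasi-likelihood test of edgeR, was under 0.05. At H1, 2 of 53 members were higher than in NC and 0 were lower, against 3.43% and 1.77% of all genes tested, and 5% and 2.54% of protein-coding genes whose log2 CPM averaged 5 or more. No member was lower at an unadjusted p under 0.05 or with DESeq2 either. At H1R1, 18 were higher and 2 lower, against 10.7% and 9.53% of all genes, and the median log2 fold change of the members was 0.20, against -0.01 over all genes tested and 0.06 over the well expressed protein-coding genes (log2 CPM of 5 or more on average). The members are mostly well expressed: of the 49 whose log2 CPM averaged 5 or more, 17 were higher and 2 lower, against 22.9% and 12.6% of protein-coding genes at that level. At H1R6, 4 members were higher and 5 lower, against 3% and 4.03% of all genes and 6.73% and 8.96% of the well expressed protein-coding genes. At H1R18, 4 were higher and 10 lower, against 4.58% and 6.43% of all genes and 8.67% and 13.6% of the well expressed ones, with a median over members of -0.01, over all genes of -0.03 and over the well expressed ones of -0.06. The H1R18 values rest on 1 library, which the test assumes to vary like the others.

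The count of 18 at H1R1 was 10 when libraries were scaled by their totals alone. Most of the 18 calls were lost without H1R1 replicate 1, the deepest library, and higher calls over all genes tested also became fewer. The median log2 fold change at H1R1 was then 0.14 over the members and -0.03 over all genes tested. EIF5 was the only member called in all 4 comparisons with NC, EIF4EBP1 and EIF4G2 were called in 3, and 29 members were called in at least 1. All comparisons with NC share the same 2 NC libraries.

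**Figure D3:**
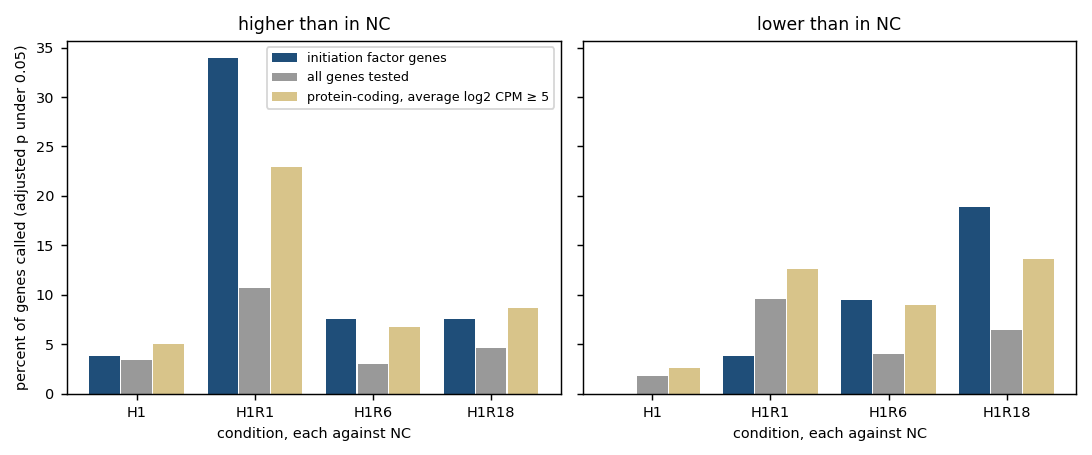
Percent of genes called higher (left) or lower (right) than in NC at an adjusted p under 0.05 (vertical axis) at H1, H1R1, H1R6 and H1R18, for the 53 tested members (blue), all 21139 genes tested (grey) and protein-coding genes whose log2 CPM averaged 5 or more (tan). The members exceed both backgrounds for higher calls at H1R1 (18 of 53) and H1R6 (4 of 53) and for lower calls at H1R6 (5 of 53) and H1R18 (10 of 53), at H1R6 by the least (7.55% against 6.73% higher and 9.43% against 8.96% lower, set against the well expressed genes).

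**Figure D4:**
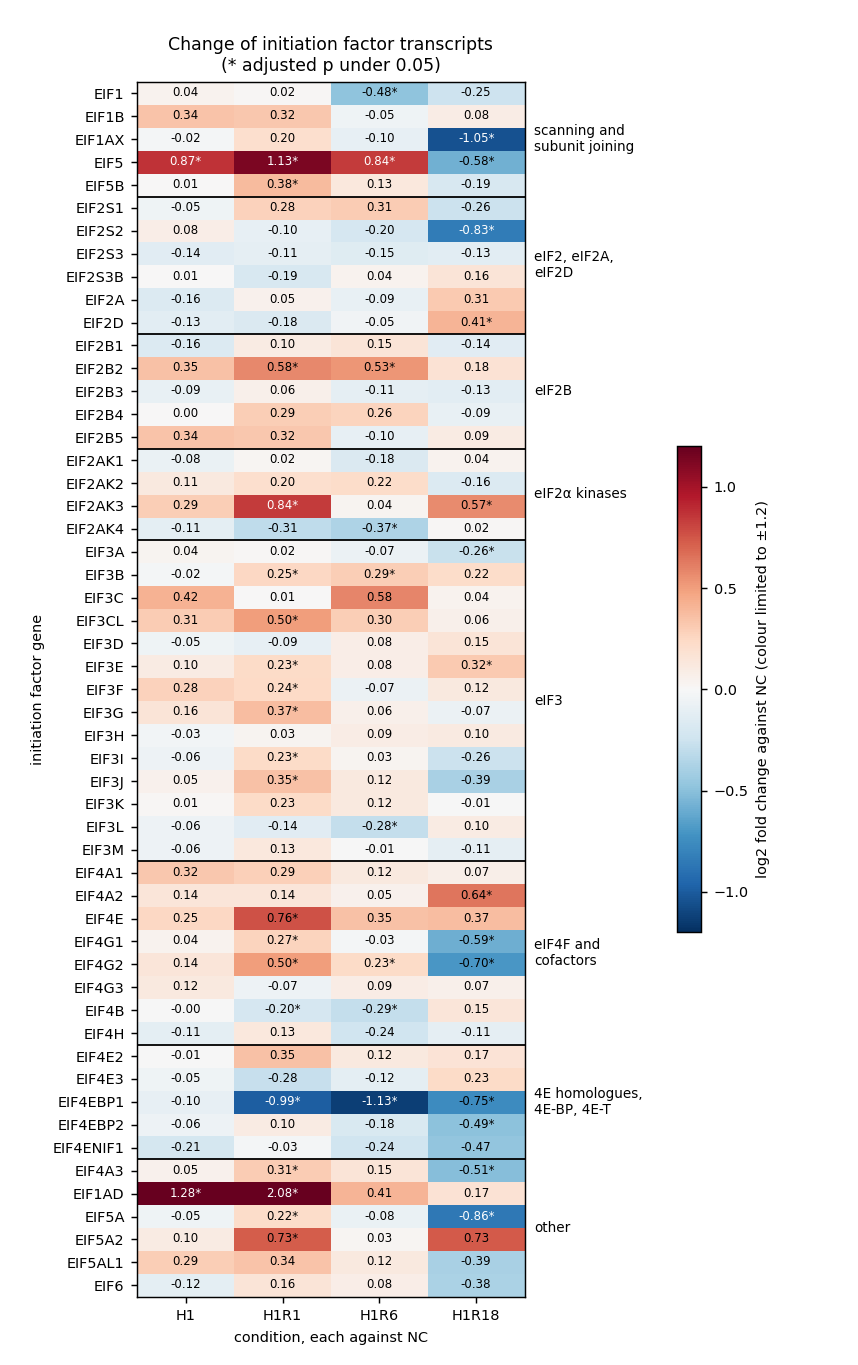
Log2 fold change against NC of each tested member (rows, grouped by complex) at H1, H1R1, H1R6 and H1R18 (columns), with the value in each cell and an asterisk where the adjusted p was under 0.05. EIF5 and EIF1AD are the only members called at H1, and EIF4EBP1 is the lowest at H1R6.

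Among the factors that find the start codon, EIF5 was called at the most times. Its gene (ENSG00000100664, chr14:103333544-103345025 of GRCh38, plus strand) encodes the GTPase-activating protein of eIF2. Its level was 169.5 and 165 TMM-normalised CPM in NC, 304 and 306 in H1, 386 and 348 in H1R1, 278 and 322 in H1R6 and 112 in H1R18. Both libraries of H1, H1R1 and H1R6 lay above both NC libraries, and the H1R18 library lay below them. The log2 fold change against NC was 0.87 (SE 0.08, adjusted p = 7.9e-09) at H1, 1.13 (SE 0.08, adjusted p = 7.69e-12) at H1R1 and 0.84 (SE 0.08, adjusted p = 2.36e-08) at H1R6, and it was -0.58 (SE 0.11, adjusted p = 0.000606) at H1R18. These 4 calls held in all alternatives. Between H1R18 and H1R6 the log2 difference was -1.42 (SE 0.11, adjusted p = 1.16e-10).

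EIF1 and EIF1AX, which keep the scanning subunit open until a start codon is met, moved at other times. EIF1 was at 465 and 483 CPM in NC, 490.4 and 485 in H1, 440.1 and 520.5 in H1R1, 341 and 338 in H1R6 and 398 in H1R18. Both H1R6 libraries lay below all others, and EIF1 fell at H1R6, where its log2 difference from NC was -0.48 (SE 0.07, adjusted p = 5.18e-05), a call that held in all alternatives. EIF1AX, the X-linked gene for eIF1A, was at 158 and 185 CPM in NC, 173 and 165 in H1, 200.1 and 194 in H1R1, 149 and 170 in H1R6 and 82.9 in H1R18. It fell at H1R18 (-1.05, SE 0.13, adjusted p = 5.94e-07), where its level was the lowest of all libraries, and that call held throughout. Of its windows 5.72% are shared with the pseudogene EIF1AXP1. EIF1B, a close homologue of EIF1, was not called at any time (log2 fold change 0.34, 0.32, -0.05 and 0.08 at H1, H1R1, H1R6 and H1R18). EIF5B, the GTPase that joins the subunits, was at 123 and 129 CPM in NC, 131 and 122 in H1, 170.1 and 157 in H1R1, 126 and 149.7 in H1R6 and 110.1 in H1R18. It was higher at H1R1 by 0.38 (SE 0.10, adjusted p = 0.00415), with both libraries above NC, and the call was lost without H1R1 replicate 1 (0.30, adjusted p = 0.102). The ratio of EIF5 to EIF1 counts was 0.365 and 0.342 in NC, 0.62 and 0.632 in H1, 0.877 and 0.668 in H1R1, 0.814 and 0.954 in H1R6 and 0.281 in H1R18.

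Genes of eIF2 and its alternatives were called against NC at H1R18 only. EIF2S2 encodes the β subunit, to which eIF5 and eIF2B bind. Its level was 146 and 145 CPM in NC, 158 and 149 in H1, 126 and 147 in H1R1, 128 and 125 in H1R6 and 81.3 in H1R18. The H1R18 library lay below all others, and EIF2S2 fell there, where its log2 difference from NC was -0.83 (SE 0.12, adjusted p = 2.14e-05), in all alternatives. EIF2S1, the α subunit that the stress kinases phosphorylate, and EIF2S3, the γ subunit that binds GTP and the initiator tRNA, were not called against NC at any time. EIF2S1 had log2 fold changes of 0.28 (SE 0.10, adjusted p = 0.0524) at H1R1 and 0.31 (SE 0.10, adjusted p = 0.0637) at H1R6, with all 4 libraries above NC, and -0.26 (SE 0.13, adjusted p = 0.231) at H1R18. EIF2S3 lay between -0.11 and -0.15 in all 4 comparisons, and it shares 11.9% of its windows with the retrocopy EIF2S3B. EIF2D, which can place an initiator tRNA without eIF2, was at 81.8 and 91.3 CPM in NC, 79.2 and 78.95 in H1, 79.2 and 73.2 in H1R1, 82.3 and 84.8 in H1R6 and 115 in H1R18, and it was higher at H1R18 (0.41, SE 0.13, adjusted p = 0.0329), in the library above all others, a call lost in 5 alternatives, among them NC replicate 1 (0.35, adjusted p = 0.13) or H1 replicate 1 (0.41, adjusted p = 0.0506) left out. EIF2A, another factor credited with such a role, had 0.31 (SE 0.13, adjusted p = 0.145) there. Over the 6 genes the median log2 fold change at H1R1 was -0.10.

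Of the 5 genes of eIF2B, the exchange factor that returns eIF2 to its active form, EIF2B2 alone was called. Its level was 27.1 and 24.5 CPM in NC, 33.7 and 32.5 in H1, 40.4 and 36.6 in H1R1, 37.8 and 37.2 in H1R6 and 29.2 in H1R18. All later libraries lay above both NC libraries. EIF2B2 was higher at H1R1 (0.58, SE 0.16, adjusted p = 0.012) and at H1R6 (0.53, SE 0.16, adjusted p = 0.0428). The first call was lost without NC replicate 2 (0.51, adjusted p = 0.0808) or H1R1 replicate 1 (0.48, adjusted p = 0.138), and the second when an NC, H1 or H1R6 library was left out (0.47 to 0.63). Other genes overlap 23.6% of its exon bases. The other 4 subunits had log2 fold changes from -0.16 to 0.34 at all times. EIF2B5, which encodes the catalytic ε subunit, had 0.34 (SE 0.14, adjusted p = 0.179) at H1 and 0.32 (SE 0.14, adjusted p = 0.104) at H1R1.

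The 4 kinases of eIF2α differ in the stress they sense. EIF2AK3 (ENSG00000172071, chr2:88556741-88691518 of GRCh38, minus strand) encodes PERK, the kinase of the endoplasmic reticulum. Its level was 35.5 and 33.4 CPM in NC, 44.9 and 39.7 in H1, 63.6 and 59.5 in H1R1, 33.6 and 37.2 in H1R6 and 51.1 in H1R18. At H1R1 and H1R18 every library lay above NC, and at H1R6 the ranges overlapped. EIF2AK3 was higher at H1R1 (0.84, SE 0.14, adjusted p = 6.56e-05) in all alternatives and at H1R18 (0.57, SE 0.18, adjusted p = 0.0394). The H1R18 call was lost in 8 alternatives, among them each NC and each H1 library left out (0.52 to 0.63, adjusted p up to 0.112), the replicate block and DESeq2. Between H1R6 and H1R1 the log2 difference was -0.80 (SE 0.14, adjusted p = 0.000106).

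EIF2AK1, which encodes the heme-regulated kinase HRI, was at 188 and 176 CPM in NC, 172 and 175 in H1, 181 and 190.4 in H1R1, 165 and 158 in H1R6 and 188 in H1R18. Its log2 fold changes were -0.08, 0.02, -0.18 and 0.04 in time order, and none was called. EIF2AK2, the gene of PKR, the kinase activated by double-stranded RNA, was at 122 and 114 CPM in NC, 132 and 123 in H1, 134 and 137 in H1R1, 142 and 132 in H1R6 and 106 in H1R18. Its fold changes were 0.11, 0.20, 0.22 and -0.16 on the log2 scale, with none called against NC. EIF2AK4, the gene of GCN2, which senses uncharged tRNA, was at 83.2 and 80.9 CPM in NC, 70.4 and 81.4 in H1, 66.5 and 66.1 in H1R1, 61.1 and 66.2 in H1R6 and 83.1 in H1R18. It was lower at H1R6 (-0.37, SE 0.11, adjusted p = 0.0428), with both libraries below NC, but 13 of the 18 alternatives lost that call (0.204 without NC replicate 1 and 0.305 without H1R6 replicate 1 were among the adjusted p).

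Subunits of eIF3, the largest initiation factor, which holds the small subunit and the messenger RNA together, accounted for 7 of the 18 higher members at H1R1. Of its 14 genes 7 were higher there, against 10.7% of all genes and 22.9% of well expressed protein-coding genes, 12 had a positive log2 fold change, and the median was 0.23. All 7 of these calls were lost without H1R1 replicate 1. At H1R18, 1 was higher, 1 was lower, and the median was 0.05. EIF3G, which binds RNA during scanning, was at 141 and 141 CPM in NC, 162 and 152 in H1, 188 and 176 in H1R1, 147 and 148 in H1R6 and 134 in H1R18. It rose by 0.37 (SE 0.09, adjusted p = 0.00206) at H1R1, with both libraries above NC. EIF3B, part of the core that all eIF3 complexes hold, was at 402 and 352 CPM in NC, 354 and 391 in H1, 448 and 448 in H1R1, 466 and 459 in H1R6 and 439 in H1R18. Its log2 fold changes were 0.25 (SE 0.07, adjusted p = 0.0167) at H1R1 and 0.29 (SE 0.07, adjusted p = 0.0116) at H1R6. Without NC replicate 2 both calls of EIF3B were lost (0.16, adjusted p = 0.206, at H1R1 and 0.20, adjusted p = 0.164, at H1R6), and that at H1R6 was also lost without H1R6 replicate 1 (0.30, adjusted p = 0.063) or 2 (0.32, adjusted p = 0.0552). EIF3E was at 396 and 423 CPM in NC, 421 and 457 in H1, 479 and 479 in H1R1, 446 and 418 in H1R6 and 510.1 in H1R18, and was higher at H1R1 (0.23, SE 0.07, adjusted p = 0.0206) and H1R18 (0.32, SE 0.09, adjusted p = 0.0136).

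EIF3CL, called at H1R1 (0.50, SE 0.14, adjusted p = 0.0106), was at 74.02 and 83.5 CPM in NC, 101 and 92.9 in H1, 136 and 83.5 in H1R1, 103.5 and 89.7 in H1R6 and 81.8 in H1R18. Its 2 H1R1 libraries lay far apart, 1 above and 1 inside the NC range, and without H1R1 replicate 1 its log2 fold change was 0.07 (adjusted p = 0.81). Its call was also lost without NC replicate 1 (0.42, adjusted p = 0.132) and by DESeq2 (0.49, adjusted p = 0.239), and that of EIF3E at H1R1 without NC replicate 1 (0.19, adjusted p = 0.119). H1R1 replicate 1 left out ended the calls of EIF3G (0.31, adjusted p = 0.0595), EIF3B (0.23, adjusted p = 0.111) and EIF3E (0.21, adjusted p = 0.116) at H1R1. EIF3I, EIF3J and EIF3F were also higher at H1R1, with log2 fold changes of 0.23, 0.35 and 0.24. EIF3L was lower at H1R6 (-0.28) and EIF3A, the scaffold subunit, at H1R18 (-0.26). All 5 of these calls were lost without NC replicate 2, all but that of EIF3I also without NC replicate 1 or either H1 library, those of EIF3I, EIF3J and EIF3F without H1R1 replicate 1, that of EIF3F without H1R1 replicate 2, and those of EIF3L and EIF3A without either H1R6 library. With single libraries left out the log2 fold changes were 0.19 to 0.28 for EIF3I, 0.26 to 0.42 for EIF3J, 0.21 to 0.29 for EIF3F, -0.31 to -0.24 for EIF3L and -0.26 to -0.24 for EIF3A. EIF3C, EIF3D, EIF3H, EIF3K and EIF3M were called at no time against NC.

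The genes of eIF4F split by time and by subunit. EIF4E (ENSG00000151247, chr4:98879276-98929133 of GRCh38, minus strand), which encodes the cap-binding protein, was at 36.5 and 41.2 CPM in NC, 47.2 and 44.7 in H1, 74.01 and 56.5 in H1R1, 54.8 and 44.3 in H1R6 and 50.04 in H1R18. All later libraries lay above both NC libraries. EIF4E rose at H1R1 by 0.76 (SE 0.15, adjusted p = 0.000359), and without H1R1 replicate 1 the value was 0.53 (adjusted p = 0.0567). The values at H1, H1R6 and H1R18 (0.25, 0.35 and 0.37) were not called.

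EIF4G1, the main scaffold, was at 795 and 715 CPM in NC, 771 and 784 in H1, 949 and 866 in H1R1, 691 and 792 in H1R6 and 502 in H1R18. It was higher at H1R1 (0.27, SE 0.07, adjusted p = 0.00669) and lower at H1R18 (-0.59, SE 0.09, adjusted p = 2.67e-05). The first call was lost without NC replicate 2 (0.19, adjusted p = 0.11) or H1R1 replicate 1 (0.18, adjusted p = 0.187), and the second held throughout. EIF4G2 (ENSG00000110321, chr11:10797050-10808940 of GRCh38, minus strand), whose product lacks the eIF4E-binding part of eIF4G and serves cap-independent initiation, was at 789 and 788 CPM in NC, 859.9 and 881 in H1, 1155 and 1070 in H1R1, 917 and 936 in H1R6 and 486 in H1R18. It was above NC in every library of H1, H1R1 and H1R6 and below it at H1R18. EIF4G2 rose by 0.50 (SE 0.06, adjusted p = 2.78e-07) at H1R1, was higher at H1R6 (0.23, SE 0.06, adjusted p = 0.0136) and fell at H1R18 (-0.70, SE 0.08, adjusted p = 1.38e-07). The H1R6 call was lost without NC replicate 2 (0.23, adjusted p = 0.0502) or H1R6 replicate 2 (0.24, adjusted p = 0.0931). The third scaffold gene, EIF4G3, was called at no time (-0.07 to 0.12).

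EIF4A2, a helicase gene, was at 174 and 189 CPM in NC, 209 and 192 in H1, 218 and 181 in H1R1, 190.2 and 186 in H1R6 and 283 in H1R18. Its H1R18 library lay above all others, and the log2 fold change was 0.64 (SE 0.11, adjusted p = 0.000103), in all alternatives. EIF4B, which stimulates the helicase, was at 419 and 415 CPM in NC, 423 and 409 in H1, 358 and 367 in H1R1, 336 and 346 in H1R6 and 461 in H1R18. It was lower at H1R1 (-0.20, SE 0.07, adjusted p = 0.0383) and H1R6 (-0.29, SE 0.07, adjusted p = 0.00708), with no overlap with NC. The H1R1 call was lost in 10 alternatives, among them each NC, H1, H1R1 and H1R6 library left out, at log2 fold changes between -0.21 and -0.18, and the H1R6 call without NC replicate 1 (-0.26, adjusted p = 0.0585), H1R6 replicate 1 (-0.24, adjusted p = 0.128) or H1R6 replicate 2 (-0.29, adjusted p = 0.074). EIF4H, its relative, and EIF4A1 were called at no time against NC.

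**Figure D5:**
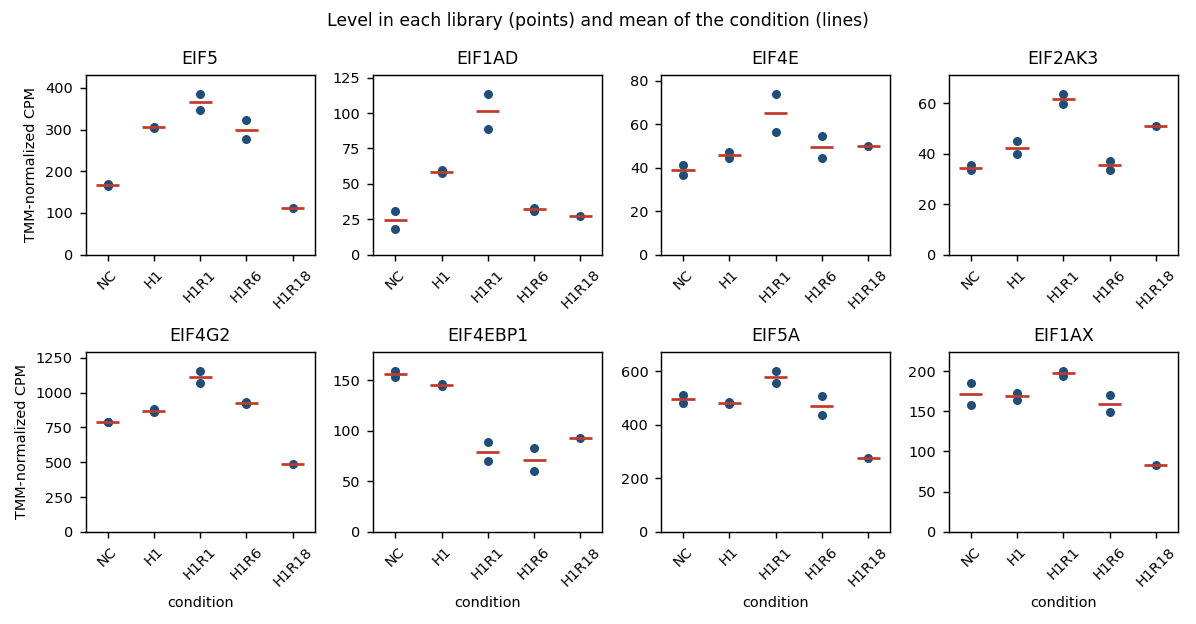
TMM-normalised CPM (vertical axes, from 0) in each library (points) and the mean of the condition (lines) for EIF5, EIF1AD, EIF4E, EIF2AK3, EIF4G2, EIF4EBP1, EIF5A and EIF1AX in NC, H1, H1R1, H1R6 and H1R18. EIF5 and EIF1AD are above NC at H1 already, EIF4E and EIF2AK3 peak at H1R1, EIF4EBP1 is low from H1R1 on, and EIF5A and EIF1AX are low at H1R18 only.

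Transcripts of the repressor EIF4EBP1 were lower at H1R1, where EIF4E was higher, and at both later times. EIF4EBP1 (ENSG00000187840, chr8:38030534-38060365 of GRCh38, plus strand) encodes 4E-BP1, which binds eIF4E when mTOR does not phosphorylate it. Its level was 159 and 153 CPM in NC, 145 and 146 in H1, 70.3 and 88.6 in H1R1, 82.5 and 60.5 in H1R6 and 92.9 in H1R18. The H1 libraries lay just below NC, and all libraries of H1R1, H1R6 and H1R18 lay far below both. The log2 fold change was -0.10 (SE 0.11, adjusted p = 0.7) at H1, -0.99 (SE 0.12, adjusted p = 1.43e-07) at H1R1, -1.13 (SE 0.12, adjusted p = 4.16e-08) at H1R6 and -0.75 (SE 0.15, adjusted p = 0.000662) at H1R18, and the last 3 calls held in all alternatives. The ratio of EIF4E to EIF4EBP1 counts was 0.229 and 0.269 in NC, 0.326 and 0.305 in H1, 1.05 and 0.638 in H1R1, 0.664 and 0.733 in H1R6 and 0.539 in H1R18, so that every later library lay above both NC libraries. EIF4EBP2, the gene of another such repressor, was at 290 and 295 CPM in NC, 291 and 271 in H1, 308 and 318 in H1R1, 262 and 254 in H1R6 and 208 in H1R18. It fell at H1R18 only (-0.49, SE 0.10, adjusted p = 0.000687), in all alternatives. EIF4E2 and EIF4E3, which encode homologues of the cap-binding protein, and EIF4ENIF1, which carries eIF4E into the nucleus and to P-bodies, were called at no time, with log2 fold changes from -0.47 (EIF4ENIF1 at H1R18, adjusted p = 0.137) to 0.35 (EIF4E2 at H1R1, adjusted p = 0.1).

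Of the genes that carry an EIF name without a core part in initiation, EIF1AD had the highest log2 fold change of the 53 tested members at H1 and at H1R1. EIF1AD (ENSG00000175376, chr11:65996545-66002176 of GRCh38, minus strand) encodes a nuclear protein with an eIF1A-like domain. Its level was 18.4 and 30.8 CPM in NC, 59.5 and 57.4 in H1, 114 and 89.1 in H1R1, 31.1 and 33.03 in H1R6 and 27.2 in H1R18. All H1 and H1R1 libraries lay above NC, and the H1R18 library lay within the NC range. EIF1AD rose by 1.28 (SE 0.17, adjusted p = 5.77e-06) at H1 and by 2.08 (SE 0.17, adjusted p = 5.31e-11) at H1R1, and was not called at H1R6 (0.41, SE 0.18, adjusted p = 0.201) or H1R18 (0.17, SE 0.24, adjusted p = 0.72). The NC libraries differed (18.4 and 30.8 CPM), and the H1R6 value was 0.08 (adjusted p = 0.888) without NC replicate 1 and 0.80 (adjusted p = 0.0177) without NC replicate 2. The gene starts 51 bases from BANF1, which is read in the other direction and encodes a chromatin-binding protein of the nuclear envelope. BANF1 was at 64.0 and 56.4 CPM in NC, 61.5 and 66.8 in H1, 82.7 and 74.3 in H1R1, 63.4 and 72.8 in H1R6 and 63.6 in H1R18. Its log2 fold change was 0.09 (SE 0.12, adjusted p = 0.794) at H1 and 0.38 (SE 0.12, adjusted p = 0.0229) at H1R1. No exon of another annotated gene overlaps those of EIF1AD.

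EIF5A, whose hypusine-bearing product helps ribosomes through difficult peptide bonds, was at 513 and 482 CPM in NC, 479 and 484 in H1, 601 and 558 in H1R1, 435 and 509 in H1R6 and 275 in H1R18. It was higher at H1R1 (0.22, SE 0.07, adjusted p = 0.034) and fell at H1R18 (-0.86, SE 0.10, adjusted p = 1.64e-07). The H1R1 call was lost in 7 alternatives (0.15 to 0.22), among them scaling by library totals and leaving out NC replicate 2, either H1 library or H1R1 replicate 1, and the H1R18 call held throughout. Its paralogue EIF5A2 was at 8.56 and 9.39 CPM in NC, 9.27 and 9.89 in H1, 14.7 and 15 in H1R1, 8.83 and 9.39 in H1R6 and 14.9 in H1R18, and was called at H1R1 (0.73, SE 0.26, adjusted p = 0.0481), a call lost in 16 of 18 alternatives, including every library left out (0.67 to 0.79). At H1R18 the log2 fold change of EIF5A2 was also 0.73, from 1 library, and was not called. EIF4A3, the helicase of the exon junction complex, was at 139 and 153 CPM in NC, 146 and 157 in H1, 201 and 158 in H1R1, 144 and 180.3 in H1R6 and 102 in H1R18, higher at H1R1 (0.31, SE 0.11, adjusted p = 0.0412) and lower at H1R18 (-0.51, SE 0.14, adjusted p = 0.016). Without H1R1 replicate 1 its H1R1 value was 0.10 (adjusted p = 0.686), the call was also lost without NC replicate 1 or either H1 library, and the H1R18 call was lost without NC replicate 2 (-0.44, adjusted p = 0.0822). EIF6, which keeps free large subunits apart from small ones, and EIF5AL1 were not called.

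In each step from one time to the next, most of the 53 tested members were not called. At H1R1 against H1, 11 members were higher and 1, EIF4EBP1, was lower (6.35% and 5.08% of all genes, 15.5% and 7.69% of well expressed protein-coding genes, 22.4% and 2.04% of the 49 well expressed members). At H1R6 against H1R1, 0 were higher and 14 lower (6.43% and 8.93% of all genes, 8.25% and 19.8% of well expressed ones, 0% and 28.6% of the well expressed members), with 2 higher at an unadjusted p under 0.05 and 0 with DESeq2. At H1R18 against H1R6, 6 were higher and 12 lower (6.28% and 7.65% of all genes, 12% and 16.4% of well expressed ones, 12.2% and 24.5% of the well expressed members). Scaling by library totals gave 6 for the 11 and 4 for the 14, and leaving out H1R1 replicate 1 gave 1 and 4. Without H1 replicate 1 or 2 the 11 became 4, without H1R6 replicate 1 the 14 became 3, and without H1R6 replicate 2 the 6 became 3.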

How the data were processed

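RNA-seq counts of 9 HEK293T libraries were grouped by the sample labels (1 library at H1R18, 2 for each other condition). The authors deposited raw counts per gene; their notes name cutadapt 4.1, HISAT2 2.2.1 and the build GRCh38, and reads were counted over Ensembl 104 exons with featureCounts 2.0.2. Both mates of a pair were counted, strand was ignored, and reads that fit several places or genes were dropped. DESeq2 1.38.3 is also named by the submitters. No columns of per-sample values were left unused (0). The members, the gene lists and the rule for naming genes were chosen with earlier results of these data known.

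Genes were kept by filterByExpr (minimum count 10, total 15; 21139 of 60664), which let a gene pass on the single H1R18 library; 18871 passed without it. Counts were TMM-scaled and fitted with edgeR 4.0.16 (quasi-likelihood, 1 coefficient per condition, R 4.3.3), with Benjamini-Hochberg adjustment over all genes tested. The SE of a log2 fold change is |log2 fold change|/√F. The common biological coefficient of variation was 0.0905. On counts halved to read pairs, chi-square per degree of freedom between replicates was 1.72 to 2.35. TPM were computed from counts and annotated exon length. Gene names were found for 60463 identifiers (99.7%), and gene types came from GENCODE 29. The script was tested on simulated data. There, of 50 genes changed by 0.5 on the log2 scale, 20 were called at H1, 20 at H1R1, 26 at H1R6 and 7 at H1R18. Of 50 changed by 1 it called 43, 44, 45 and 39, so a member that was not called may still have changed.

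Library values are given for up to 20 members called against NC, by smallest adjusted p, for all tested EIF2AK and EIF4EBP genes, and, in a group with no called member, for the highest one; EIF2D, EIF4A3, EIF5A2 and BANF1 were added after their values were seen. The fit was repeated with RLE, upper-quartile or library-size scaling, with no filter or a minimum of 10 counts per library, with just the conditions compared, with a replicate block, by DESeq2 1.42.0 and without each library. Counts halved to read pairs, and a background of protein-coding genes whose log2 CPM averaged 5 or more, were added after the data were seen.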

Additional observations from a re-analysis of the deposited data

Results flagged for a closer look

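For the 20 members with the smallest adjusted p against NC, the effect against NC at one time was tested against that at the time before. Of these differences, 31 passed edgeR's quasi-likelihood test (Benjamini-Hochberg adjusted p under 0.05 over all genes). They are differences of log2 fold changes against NC. Other members given by library were left out of this set. EIF2AK2, which had -0.38 at H1R18 against H1R6 with 1 library at H1R18, was among those left out. The 20 members were picked by smallest adjusted p against NC. The libraries behind that choice also enter these differences, so the directions below are no independent result.

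At H1R1 against H1 the difference was 0.80 for EIF1AD, 0.54 for EIF2AK3, 0.52 for EIF4E, 0.37 for EIF5B, 0.35 for EIF4G2, 0.27 for EIF5A, 0.27 for EIF5, 0.27 for EIF3B and 0.22 for EIF4G1, and it was -0.88 for EIF4EBP1. The log2 fold change was higher at H1R1 in 9 of these 10.

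At H1R6 against H1R1 it was -1.67 for EIF1AD, -0.80 for EIF2AK3, -0.50 for EIF1, -0.41 for EIF4E, -0.31 for EIF3G, -0.30 for EIF1AX, -0.30 for EIF5A, -0.29 for EIF5, -0.29 for EIF4G1, -0.28 for EIF4EBP2 and -0.26 for EIF4G2. All 11 were negative.

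At H1R18 against H1R6 it was -1.42 for EIF5, -0.95 for EIF1AX, -0.93 for EIF4G2, -0.78 for EIF5A, -0.64 for EIF2S2, -0.56 for EIF4G1 and -0.31 for EIF4EBP2, and 0.59 for EIF4A2, 0.53 for EIF2AK3 and 0.44 for EIF4B. These 10 rest on the single H1R18 library.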

How the results depend on the processing

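No member called against NC had the opposite sign in that comparison under any alternative run. Counts of members called changed by over 1.5 times as follows. With library-size scaling, 10 were higher at H1R1, 3 lower at H1R6, 6 higher and 2 lower at H1R1 against H1, and 3 higher and 4 lower at H1R6 against H1R1. With upper-quartile scaling or at least 10 counts in every library, 2 were lower at H1R1 against H1 and 2 higher at H1R6 against H1R1. With no filter, 1 was lower at H1R1, 3 lower at H1R6, 2 higher at H1R18 and 1 higher at H1R6 against H1R1. With only the conditions compared, 1 was lower at H1R1, 3 lower at H1R6, 2 higher at H1R18, and 0 higher and 2 lower at H1R18 against H1R6. DESeq2 gave 3 lower at H1R6 and 2 higher at H1R18. Read pairs gave 1 higher at H1R6 against H1R1. Of the calls against NC at H1R1, DESeq2 lost those of EIF3CL, EIF3F, EIF3J, EIF4A3 and EIF5A2. At H1R6 it lost those of EIF2AK4, EIF2B2 and EIF3L, and at H1R18 those of EIF2AK3, EIF2D and EIF4A3.

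With each library left out in turn, members higher and lower ranged from 4 to 18 and 1 to 3 at H1R1, 1 to 4 and 2 to 5 at H1R6, and 2 to 4 and 8 to 10 at H1R18. Against the time before, they ranged from 1 to 12 and 1 to 2 at H1R1, 0 to 1 and 3 to 16 at H1R6, and 3 to 7 and 9 to 12 at H1R18.

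Replicate numbers did not pair the libraries: deviations of same-numbered libraries correlated at -0.0362 to 0.0443 over 11747 genes. With the replicate block, 1 member was higher at H1R6 against H1R1 in place of 0, and 16 were higher at H1R1.

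With 2 libraries per condition and 1 at H1R18, many calls at H1R1 and H1R6 were lost when 1 library was left out. For some calls that library was an H1 library outside the comparison. The log2 fold change at H1R1 then stayed at 0.21 to 0.29 for EIF3F (0.24 with all libraries). For EIF3CL it went from 0.50 to 0.07 without H1R1 replicate 1. The cause of the lost calls was not tested.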

Other observations

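Genes that act with the initiation factors but carry no EIF name gave further values. PPP1R15A, the stress-induced partner of the phosphatase that removes phosphate from eIF2α, was higher at H1 (log2 fold change 1.47, SE 0.15, adjusted p = 3.96e-08 by the quasi-likelihood test of edgeR), at H1R1 (0.88, SE 0.16, adjusted p = 0.000139) and at H1R18 (0.96, SE 0.19, adjusted p = 0.00096). PPP1R15B, its constitutive relative, was higher at the same times, by 0.29, 0.74 and 0.62 on the log2 scale. They were the only called genes at H1 among 23 tested regulators of initiation (8.7%, against 3.43% higher among all genes tested and 5% among protein-coding genes whose log2 CPM averaged 5 or more). At H1R1, 4 of the 23 were higher and 2 lower (17.4% and 8.7%), against 10.7% and 9.53% of all genes and 22.9% and 12.6% of the well expressed ones. At H1R6, 1 was higher and 4 lower (4.35% and 17.4%), against 3% and 4.03% of all genes and 6.73% and 8.96% of the well expressed ones. At H1R18, 3 were higher and 3 lower (13% each), against 4.58% and 6.43% of all genes and 8.67% and 13.6% of the well expressed ones. Not every called regulator is named here. IMPACT, an inhibitor of GCN2 activation, was lower at H1R1 (-0.85), H1R6 (-0.68) and H1R18 (-0.68). PDCD4, an inhibitor of eIF4A, was lower at H1R1 (-0.52). DDX3X, a helicase that helps initiation on structured messages, was higher at H1R1 (0.29) and H1R6 (0.39).

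Of 14 tested factors of elongation, termination and recycling, 3 were higher and 1 lower at H1R1 (21.4% and 7.14%), against 10.7% and 9.53% of all genes tested and 22.9% and 12.6% of the well expressed protein-coding genes. At H1R18, 2 were higher and 2 lower (14.3% each), against 4.58% and 6.43% of all genes and 8.67% and 13.6% of the well expressed ones. ETF1, the termination factor that reads stop codons, was higher at H1R1 (0.60) and H1R6 (0.44) and lower at H1R18 (-0.59). DOHH, which completes the hypusine of eIF5A, was higher at H1R1 (0.98, SE 0.21, adjusted p = 0.00114). EEF2, the translocase, was lower at H1R6 (-0.21) and higher at H1R18 (0.35).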
